A study of Mus musculus with 20 samples.

Results

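E1KD SCR and Empty vector NMuMG cells were compared to read the silencing of hnRNP E1 in the libraries of the study that kept ribosomal and 7SK RNA. The members were chosen as the genes with at least 1 count per 1e6 reads (CPM) in at least 2 of these 4 libraries, which gave 15259 of the 54986 genes of the deposited table. NMuMG cells are an established line of mouse mammary epithelium, and the lines compared were grown as flat cultures in DMEM with fetal bovine serum. E1KD SCR cells carried a stable shRNA against Pcbp1, the gene of hnRNP E1, and in addition a scrambled shRNA, while Empty vector cells carried an empty overexpression vector and no shRNA is named for them in the labels. The effect of the hnRNP E1 shRNA and those of the scrambled shRNA, the vectors and the derivation of separate lines therefore cannot be told apart in this comparison. Each line gave 2 of the 20 libraries, and the labels do not say whether these came from separate cultures, so the p-values measure the spread between libraries, which may be technical. An exact permutation test of single genes with this number of libraries cannot reach a p under 0.333 and none was made. The same silencing was also sequenced without a second construct, as E1KD against NMuMG cells with no named construct, in another kind of library that holds little structural RNA, and is set beside the results where it differs. The study describes silencing Platr18 in E1KD cells. E1KD SCR and Empty vector may therefore descend from the same E1KD and NMuMG lines as that comparison, which the labels do not state.

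hnRNP E1 is an RNA-binding protein with KH domains that takes part in splicing, in mRNA stability and in the control of translation. It is known as a brake on the epithelial–mesenchymal transition (EMT), in which epithelial cells lose E-cadherin junctions and keratins and gain N-cadherin, vimentin, fibronectin and motility. NMuMG cells are a common model of that transition, and TGFβ, which inactivates hnRNP E1 by phosphorylation, is its usual trigger.

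In these 4 libraries 1 read was worth 0.0135 to 0.0159 CPM and 3 reads 0.0406 to 0.0477 CPM. The mitochondrial ribosomal RNA mt-Rnr2 took 145039 to 165149 CPM of each and the 7SK RNA Rn7sk 7777 to 9564 CPM, and nuclear protein-coding genes 55.2% to 57.1% of the reads in genes. The libraries of a line were alike, with a median log2 difference of 0.01 between the replicates of E1KD SCR and of -0.01 between those of Empty vector. Replicate 1 of E1KD, in the other comparison, stood apart from replicate 2 by a median of 0.31, so counts and the main values that use it are also given without it.

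Pcbp1 (chr6:86524492-86526321 in GRCm38.p6, minus strand) was measured at 3.28 and 3.46 CPM in E1KD SCR against 32.3 and 32.3 CPM in Empty vector. The groups did not overlap and the level was 9.59-fold lower with the shRNA (log2 difference -2.93, standard error 0.0701, limma p of 2.9e-11 after Benjamini-Hochberg adjustment over the genes tested). Differences are given throughout as E1KD SCR minus Empty vector on the log2(CPM + 1) scale, which understates the change of genes at low CPM. A gene was called at an adjusted p under 0.05 and an absolute log2 difference of at least 1, and folds are ratios of the mean CPM of 2 libraries in each group. Of the 4 other tested family members, poly(C)-binding proteins or the related Hnrnpk, none was called by limma. Of these, 2 had an unadjusted p under 0.05, as had 10086 of all 15259 genes tested. All 4 are given here as the rest of that list. Pcbp2, the closest paralog, was measured at 45.0 and 44.1 CPM in E1KD SCR and 44.5 and 43.7 CPM in Empty vector, a log2 difference of 0.01. Hnrnpk had 273 and 259.8 CPM against 251 and 249.6 CPM, and Pcbp3 and Pcbp4 differed by 0.30 and 0.21 on the log2 scale. An antisense gene over Pcbp1, RP23-20K24.5, reached 8.48 CPM in these libraries, and since the use of strand in the counting is not stated, reads of the pair cannot be told apart. In E1KD, Pcbp1 had 16.6 and 14.2 CPM against 287 and 312 CPM in NMuMG, 19.4-fold lower, and the effects of the 2 comparisons differed by 1.37, or 1.28 without E1KD replicate 1.

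Between E1KD SCR and Empty vector, 493 genes were called higher, 3.23% of those tested, and 528 were called lower, 3.46%. All 1021 differed without overlap between the groups, and the largest adjusted p among them was 0.00253. Whatever the p, 1021 genes had an absolute difference of at least 1. With 2 libraries per line that were so alike, the limit on size nearly ensures the lack of overlap, which is no further support. The limit on size set these counts, because 9599 genes, 62.9%, had an adjusted p under 0.05 at any size while the median difference over all genes was 0.03. Among genes whose mean over these libraries reached 5 CPM, 213 were called higher and 310 lower. Pcbp1 ranked number 94 by size among all genes tested. In bulk RNA of a line, fewer cells with a transcript and less of it per cell cannot be told apart.

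**Figure D1:**
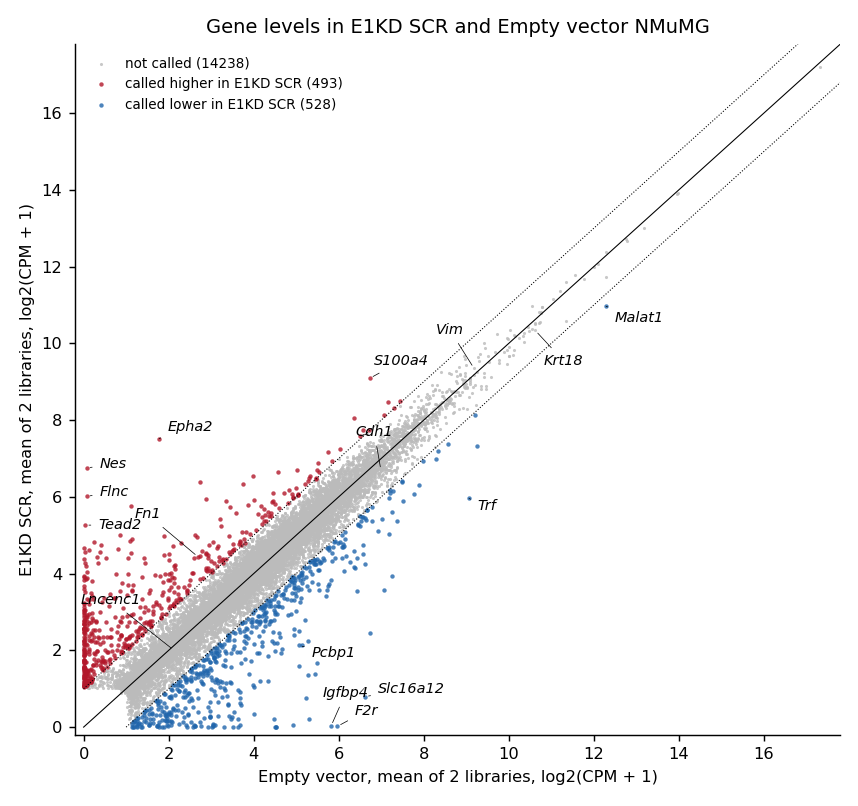
Each point is one of the 15259 genes tested, placed by its mean log2(CPM + 1) over 2 libraries of Empty vector (x axis) and of E1KD SCR (y axis), with the 493 genes called higher in red, the 528 called lower in blue and dotted lines at a log2 difference of 1 in either direction. Nes, Flnc and Tead2 lie on the left edge, near 0 in Empty vector, and F2r and Igfbp4 on the lower edge, near 0 in E1KD SCR, while Cdh1, Vim, Krt18 and Lncenc1 lie near the diagonal.

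Among the called genes were some read in one line and nearly unread in the other. Of the 493 genes called higher, 104 had at most 3 reads in each Empty vector library, and 40 of these had none. Of the 528 called lower, 34 had at most 3 reads in each E1KD SCR library, and 12 of these had none. By the filter such genes were tested only if both libraries of the other line reached 1 CPM. That nearly sets their call in advance, so these counts are a description. At least 5 CPM in both libraries of the other line was reached by 30 of the 104 and 13 of the 34. The state of most of these genes was shared with the other comparison: 71 of the 104 were at 3 reads or fewer in both NMuMG libraries, and 21 of the 34 in both E1KD libraries.

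The promoters of the pair with the highest level in each direction are shown because these genes were read well in one line and by at most 3 reads in each library of the other. They hold the 250 bases before the annotated start, from RefSeq on GRCm38.p6, 5′ to 3′ on the strand of the gene, with each CG dinucleotide in capitals. F2r (chr13:95618467-95618716, minus strand) and Igfbp4 (chr11:99040994-99041243, plus strand) were nearly unread in E1KD SCR, and Tead2 (chr7:45215542-45215791, plus strand) and Zfp518b (chr5:38684827-38685076, minus strand) in Empty vector.
F2r: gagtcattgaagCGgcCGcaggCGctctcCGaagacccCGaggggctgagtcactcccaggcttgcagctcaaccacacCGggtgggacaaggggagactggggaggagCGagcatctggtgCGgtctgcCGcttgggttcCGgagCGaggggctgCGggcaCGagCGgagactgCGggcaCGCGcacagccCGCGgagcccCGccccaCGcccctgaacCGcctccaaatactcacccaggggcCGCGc
Igfbp4: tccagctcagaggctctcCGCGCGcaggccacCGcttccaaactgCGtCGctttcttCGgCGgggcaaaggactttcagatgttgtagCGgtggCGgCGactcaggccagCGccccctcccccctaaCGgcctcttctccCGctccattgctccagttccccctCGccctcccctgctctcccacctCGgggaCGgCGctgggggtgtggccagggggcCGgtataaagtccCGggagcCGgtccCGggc
Tead2: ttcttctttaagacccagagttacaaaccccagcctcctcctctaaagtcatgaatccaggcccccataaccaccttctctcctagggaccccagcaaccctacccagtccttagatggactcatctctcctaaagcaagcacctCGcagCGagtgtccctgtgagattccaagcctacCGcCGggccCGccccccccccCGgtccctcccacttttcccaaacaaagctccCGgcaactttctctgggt
Zfp518b: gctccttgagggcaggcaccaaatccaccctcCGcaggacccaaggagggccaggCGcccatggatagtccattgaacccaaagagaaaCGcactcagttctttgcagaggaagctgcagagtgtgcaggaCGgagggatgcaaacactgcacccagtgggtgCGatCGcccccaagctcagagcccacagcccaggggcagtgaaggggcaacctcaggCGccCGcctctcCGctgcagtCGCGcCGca
The windows of F2r and Igfbp4 held 24 and 22 CG dinucleotides, numbers reached by 11.98% and 14.8% of the 32851 promoters of the table. Those of Tead2 and Zfp518b held 7 and 12, reached by 46.3% and 33.5%. Searched on both strands, TGANTCA, the motif of AP-1, was found in F2r and in 6.75% of all promoters, and TATAAA in Igfbp4 and in 12.4%. CAGGTG, an E-box that Snail and Zeb proteins are known to bind, was found in none of the 4 windows and in 17.2% of all promoters.

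F2r, the thrombin receptor PAR1, had 0.0135 and 0.0159 CPM in E1KD SCR, which is 1 read in each library, against 59.3 and 64.3 CPM in Empty vector. Igfbp4, which binds insulin-like growth factors, had 0.0271 and 0.0159 CPM against 57.1 and 53.9 CPM, and Mal2, a protein of apical transport in polarized epithelia, 0.0406 and 0.0318 CPM against 30.1 and 29.0 CPM. These 3 genes had at most 3 reads in each E1KD SCR library. No read fell on Slc25a13, the mitochondrial aspartate–glutamate carrier citrin, in E1KD SCR, against 21.4 and 21.8 CPM in Empty vector, so its level was at least 490.1-fold lower by the floor of 3 reads per library. Prdx4, a peroxiredoxin of the endoplasmic reticulum, was at 0 against 21.2 and 22.8 CPM, at least 499-fold lower. Hmgcll1, a homolog of the lyase that makes ketone bodies, was at 0 against 23.2 and 21.1 CPM, at least 503-fold lower. Further genes at 0 in E1KD SCR, named after their values were seen, were the ion channel Trpa1, with 12.2 and 10.7 CPM in Empty vector, and Micu2, a regulator of mitochondrial calcium uptake, with 10.6 and 10.1 CPM. Slc25a13, Trpa1 and Micu2 were also at 0 in both E1KD libraries, with 7.26 and 8.35 CPM, 6.58 and 7.09 CPM and 6.07 and 6.204 CPM in NMuMG.

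In the other direction, Tead2, a DNA-binding partner of YAP in the Hippo pathway, had 35.9 and 38.9 CPM in E1KD SCR against 0.0411 and 0.0145 CPM in Empty vector. Zfp518b, a zinc finger protein, had 24.1 and 24.3 CPM against 0.0137 and 0.0145 CPM, and Atp11a, a phospholipid flippase, 23.2 and 22.5 CPM against 0.0411 and 0.0145 CPM. All 3 were at 0 in both NMuMG libraries, while the E1KD libraries had 50.1 and 36.8 CPM of Tead2, 34.0 and 31.5 CPM of Zfp518b and 47.7 and 36.7 CPM of Atp11a. Ak4, a mitochondrial adenylate kinase, had 20.2 and 19.1 CPM against 0 and 0.0145 CPM, and Lhfp, a membrane protein of the tetraspan type, 18.8 and 18.3 CPM against 0.0137 and 0.0290 CPM. Hexa, the alpha subunit of lysosomal hexosaminidase, was named after its values were seen: it had 14.2 and 14.2 CPM in E1KD SCR and no read in Empty vector or NMuMG, at least 335-fold higher than the floor of Empty vector.

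The largest rises included proteins of the cytoskeleton and the cell surface. Nes, the intermediate filament protein nestin of progenitor cells, had the largest difference of all genes, 105 and 108 CPM against 0.0411 and 0.0579 CPM (log2 difference 6.68, standard error 0.0621, adjusted p = 7.5e-14 from limma). Flnc, the muscle filamin, had 59.5 and 68.0 CPM against 0.0411 and 0.0579 CPM, and Epha2, an ephrin receptor, 169.9 and 196 CPM against 2.45 and 2.40 CPM, a 75.4-fold difference. Hspb8, a small heat shock protein, had 52.4 and 53.6 CPM against 1.19 and 1.12 CPM. Khdrbs3, a splicing regulator related to Sam68, had 24.04 and 23.05 CPM against 0.0548 and 0.145 CPM, and Slc38a1, a glutamine transporter, 25.4 and 26.1 CPM against 0.342 and 0.319 CPM. Each of these genes rose at least 45.9-fold, and each was called higher in E1KD against NMuMG as well.

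The falls that were largest or had the smallest p by limma included transporters, surface proteins and a secreted iron carrier. Of the genes below, Trf, Tm4sf1 and Gcnt1 were named for a small p and not for size. Slc16a12, a monocarboxylate transporter, had 0.677 and 0.794 CPM in E1KD SCR against 104 and 91.0 CPM in Empty vector, a 132-fold difference. Cdh16, the cadherin of kidney epithelium, had 4.63 and 4.32 CPM against 106 and 106 CPM, and Pard3b, a homolog of the polarity protein Par3, 0.609 and 0.810 CPM against 37.8 and 35.7 CPM. Trf, which encodes the iron carrier transferrin, had 63.7 and 58.7 CPM against 542 and 527 CPM. Tm4sf1, a tetraspanin-like surface protein, had 11.4 and 10.3 CPM against 129 and 136 CPM, and Gcnt1, an enzyme of mucin-type glycan branching, 10.4 and 10.8 CPM against 85.9 and 84.6 CPM. Kcnk5, a potassium channel, and Tex101, a surface glycoprotein known from the testis, were lower as well, with differences of -4.28 and -5.08 on the log2 scale. Ms4a4b, a membrane protein known from T cells, had 1.81 and 1.43 CPM against 42.9 and 42.4 CPM.

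The epithelial genes that define EMT were lower by a small amount and did not pass the limit on size. Cdh1, the gene of E-cadherin, had 101 and 104 CPM in E1KD SCR against 127 and 125 CPM in Empty vector, a log2 difference of -0.30 (adjusted p = 5e-05 from limma). Ocln, the tight junction protein occludin, had 17.5 and 17.2 CPM against 23.5 and 22.3 CPM, and Tjp1, which encodes ZO-1, 149 and 147 CPM against 181 and 185 CPM. The differences of these 3 genes lay between -0.38 and -0.30, and 62.9% of all genes tested had an adjusted p under 0.05 at any size. Krt8 and Krt18, the paired keratins of simple epithelia, differed by -0.28 and -0.29, with 1235 and 1349 CPM of Krt18 against 1485 and 1672 CPM. Among 26 tested genes of epithelial junctions and adhesion, 3 were called lower and 1 higher, beside 3.46% and 3.23% of all genes, and the median difference was -0.31 with 3 values above 0. Those called lower were Marveld2, the tricellular junction protein tricellulin, with 0.0406 and 0.0635 CPM against 7.70 and 6.89 CPM, the connexin gene Gjb5 (-1.48) and the laminin chain Lama5 (-1.07). The call of Lama5 was lost without E1KD SCR replicate 1 (-0.98) and without Empty vector replicate 1 (-0.94). Among 8 tested keratins and epithelial proteases, 2 were called lower: Krt7, with 1.15 and 1.29 CPM against 8.71 and 9.72 CPM, and the protease inhibitor Spint2, with 10.4 and 11.4 CPM against 35.7 and 28.3 CPM.

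Several epithelial genes were at or near 0 in both lines. Epcam had no read in the 4 libraries, and Esrp1, an epithelial splicing regulator, and Grhl2, a factor of the epithelial program, stayed at or under 0.162 CPM. Of 8 tested epithelial transcription and splicing regulators, only Ehf, an Ets factor, was called, and it was higher in E1KD SCR, with 62.5 and 52.9 CPM against 21.2 and 20.1 CPM. Of 8 tested EMT transcription factors none was called by limma in either direction and 5 had an unadjusted p under 0.05. Over all 15259 genes tested, 3.23% were called higher, 3.46% lower, and 10086 had such a p. Zeb1 had 24.9 and 24.3 CPM against 19.9 and 20.46 CPM and Zeb2 16.0 and 16.1 CPM against 13.8 and 13.7 CPM, repressors of E-cadherin whose differences were 0.27 and 0.21. Snai1 stayed at or under 0.365 CPM and Twist1 at or under 0.349 CPM in all 4 libraries, too low to be tested.

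Mesenchymal genes moved unequally. Vim, the gene of vimentin, had 619 and 684 CPM in E1KD SCR against 560.0 and 599.6 CPM in Empty vector, a log2 difference of 0.17 that did not pass the test (adjusted p = 0.0678 from limma). Cdh2, the gene of N-cadherin, had 87.4 and 85.0 CPM against 56.6 and 55.6 CPM, a difference of 0.61 under the limit on size. Acta2, the smooth muscle actin, stayed at 1.75 and 1.62 CPM against 1.40 and 1.59 CPM. Of 15 tested genes of the mesenchymal cytoskeleton and adhesion, 4 were called higher and none lower, beside 3.23% and 3.46% of all genes, with a median difference of 0.39. Beside Nes they were S100a4, a calcium-binding protein known as a fibroblast marker, with 543 and 546 CPM against 99.1 and 112 CPM, the fibronectin receptor chain Itga5 with 10.6 and 10.51 CPM against 2.70 and 2.61 CPM, and the adhesion molecule Mcam with 1.597 and 1.22 CPM against 0.0411 and 0.0290 CPM.

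**Figure D2:**
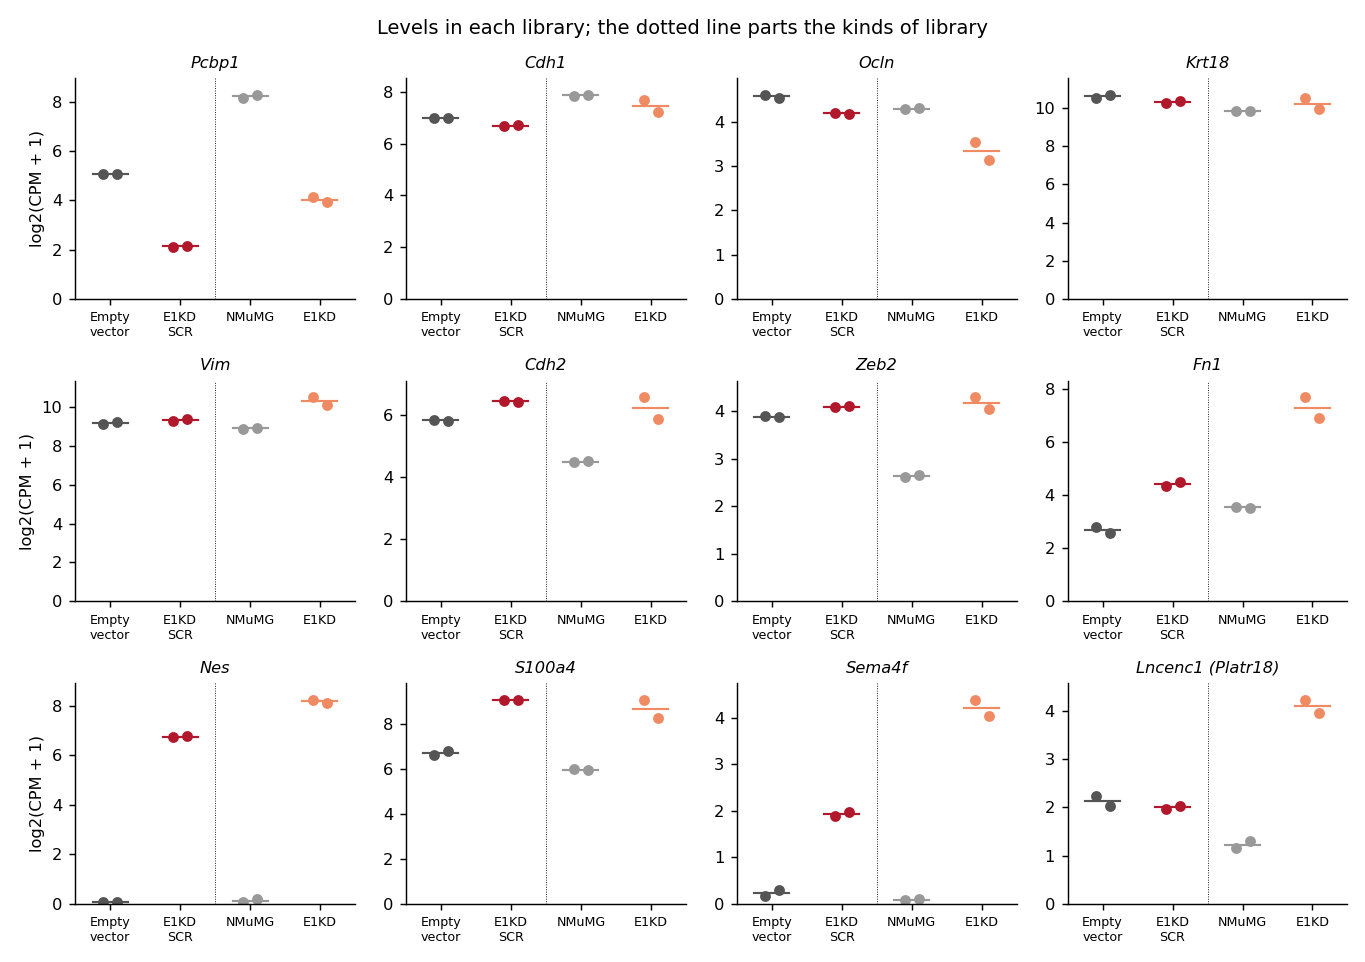
Each panel gives log2(CPM + 1) of 1 gene in each of 8 libraries, with a point per library and a bar at the mean of 2. Pcbp1 was lower with the shRNA on both sides of the dotted line, and Nes, S100a4, Fn1 and Sema4f were higher, while Vim, Zeb2 and Lncenc1 (Platr18) were higher in E1KD than in NMuMG but nearly level between E1KD SCR and Empty vector.

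Genes of the extracellular matrix were called in both directions. Of 17 tested matrix and matricellular genes 4 were called higher and 5 lower, beside 3.23% and 3.46% of all genes, and the median difference was 0.33. The counts of collagens and of matrix proteases below are to be read against the same shares. Fn1, the gene of fibronectin, had 19.6 and 21.8 CPM in E1KD SCR against 5.90 and 5.03 CPM in Empty vector, 3.79-fold higher (log2 difference 1.75, standard error 0.0783, adjusted p = 5.1e-09 from limma). Tnxb, a tenascin, had 11.5 and 14.2 CPM against 2.77 and 2.56 CPM, the fibulin Fbln2 107 and 127 CPM against 42.5 and 46.3 CPM, and the matrilin Matn2 rose by 1.14 on the log2 scale. Agrn, the basement membrane proteoglycan agrin, had 74.7 and 81.0 CPM against 247 and 227 CPM, and the laminin chain Lamb3 11.8 and 12.6 CPM against 42.3 and 46.9 CPM. The laminin chain Lamc1 differed by -1.09. Cyr61, a matricellular target of YAP named after its values were seen, was also called lower, with a difference of -1.01 that was -0.94 without E1KD SCR replicate 1 and -0.89 without Empty vector replicate 1, both under the limit. Of 10 tested collagens, 2 were called higher, Col5a1 with 2.22 and 2.26 CPM against 0.0274 and 0 CPM and Col12a1 with 2.02 and 1.70 CPM against 0.329 and 0.391 CPM, and without E1KD SCR replicate 1 the difference of Col12a1 was 0.99. Serpinh1, the collagen chaperone of the endoplasmic reticulum, had 18.7 and 21.7 CPM against 1.25 and 0.898 CPM. Of 13 tested matrix proteases and inhibitors 4 were called higher and 1 lower, though the median was -0.36. Serpinb9b, a serine protease inhibitor, had 63.4 and 58.8 CPM in E1KD SCR against 5.95 and 6.85 CPM in Empty vector. Plau, the urokinase plasminogen activator, had 5.70 and 5.43 CPM against 0.0959 and 0.0869 CPM, the proteases Adam8 and Adamts4 differed by 1.05 and 1.03 and the collagenase Mmp13 by -1.34. The call of Adam8 was lost without E1KD SCR replicate 2 (0.98) or Empty vector replicate 1 (0.998), and that of Adamts4 without the same libraries (0.96 and 0.95).

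Genes of axon guidance and neuronal signalling, which the study followed in EMT, moved in both directions. Of 52 tested, 11 were called higher and 7 lower, shares of 21.2% and 13.5% against 3.23% and 3.46% of all genes, and the median was 0.12. The list was written with earlier results of these data known, so the shares are a description. In E1KD against NMuMG, the 11 were called higher too, and 3 of the 7 were called lower. Beside Epha2, Igsf11, an adhesion molecule of the immunoglobulin family, had 27.6 and 28.2 CPM against 1.15 and 1.12 CPM, a 24.6-fold difference. Bdnf, the brain-derived neurotrophic factor, had 24.9 and 26.1 CPM in E1KD SCR against 2.90 and 3.69 CPM in Empty vector. Sema4f, a semaphorin, had 2.69 and 2.94 CPM against 0.123 and 0.232 CPM (log2 difference 1.70, standard error 0.0887, adjusted p = 2e-08 from limma). Vangl2, a planar polarity protein, had 2.88 and 3.22 CPM against 0.0274 and 0 CPM, and Flrt2, a ligand of Unc5 receptors, 3.13 and 2.64 CPM against 0.0274 and 0.0579 CPM. Nrp1, the co-receptor of semaphorins and VEGF, had 65.8 and 67.4 CPM against 30.5 and 33.1 CPM, with a difference of 1.04 that fell to 0.99 without Empty vector replicate 1. Robo1, a Slit receptor, was lower, with 2.18 and 2.40 CPM against 15.2 and 13.6 CPM, as were the semaphorin receptor Plxnb1 with 10.8 and 11.2 CPM against 47.4 and 43.3 CPM and the secreted semaphorin Sema3b with 1.73 and 2.19 CPM against 10.45 and 9.72 CPM.

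The TGFβ pathway acts upstream of hnRNP E1 in EMT. Of 35 tested genes of TGFβ and BMP signalling 3 were called higher and 3 lower, beside 3.23% and 3.46% of all genes, with a median of -0.07. Tgfb2, a ligand, had 3.38 and 3.37 CPM in E1KD SCR against 0.479 and 0.637 CPM in Empty vector, and Ltbp1, which tethers latent TGFβ in the matrix, 66.5 and 69.4 CPM against 20.9 and 21.1 CPM. Id3, a target of BMP signalling, had 17.6 and 23.03 CPM against 4.95 and 5.14 CPM. Tgfbr3, the co-receptor betaglycan, was 24.2-fold lower, with 0.593 and 0.411 CPM against 13.1 and 11.2 CPM, and Bmp4 and the signal carrier Smad2 differed by -1.31 and -1.12. Smad7, an inhibitor that TGFβ induces, had 9.64 and 10.7 CPM against 20.6 and 18.4 CPM, and Bmp7 4.17 and 5.29 CPM against 6.68 and 5.62 CPM, both under the limit on size. Of 7 tested translational targets of hnRNP E1, Prl2c2 alone was called, while the median of the list was -0.53 and 2 values were above 0. An unadjusted p under 0.05 was found for 6 of the 7, beside 10086 of all 15259 genes tested. Prl2c2 had 3.68 and 3.65 CPM against 0.151 and 0.348 CPM and belongs to a family of near-identical genes whose reads may be shared. Fam3c, the classic target known as ILEI, had 22.9 and 22.6 CPM against 33.9 and 32.6 CPM, a difference of -0.53. Dab2, another such target, stayed at or under 0.191 CPM. These are RNA levels, and the translation of the targets was not measured in these libraries.

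Of 29 tested receptors and ligands of growth factors 5 were called lower and 1 higher, beside 3.46% and 3.23% of all genes. Beside Igfbp4, Irs1, the docking protein of the insulin receptor, had 0.582 and 0.826 CPM in E1KD SCR against 12.8 and 10.9 CPM in Empty vector. Fgf1, which overlaps Arhgap26 on the other strand, had 8.13 and 7.26 CPM against 24.4 and 24.01 CPM and its receptor Fgfr2 9.64 and 9.76 CPM against 30.6 and 31.4 CPM, where the gene model of Fgfr2 overlaps many other expressed genes. Fgf18, another ligand, was lower by a smaller step (-1.10). Igf2r, the receptor that clears IGF2 and sorts lysosomal enzymes, was the one called higher, with 83.0 and 82.1 CPM against 5.68 and 5.63 CPM, a 14.6-fold difference in a gene that overlaps Airn on the other strand. Of 22 tested genes of the Wnt and Notch pathways 3 were called higher, the receptor Fzd2 (2.21), the ligand Wnt4 (2.06) and the Wnt target Axin2, with 1.99 and 2.14 CPM against 0.205 and 0.232 CPM. Another 3 were called lower, the Notch target Hey1 (-1.37), the co-receptor Lrp5 (-1.30) and the Notch ligand Jag1 (-1.08, or -0.99 without Empty vector replicate 1).

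Among immune genes, Ly6 surface antigens and 3 MHC class I genes were called higher and 3 Ifit genes lower. The counts of the immune lists are to be read against the 3.23% of all genes called higher and 3.46% called lower. Ly6e had 26.9 and 27.6 CPM in E1KD SCR against 0.178 and 0.174 CPM in Empty vector, a 155-fold difference, and Ly6a, which encodes Sca-1, 21.8 and 19.5 CPM against 0.274 and 0.217 CPM. Ly6c1 had 8.26 and 8.21 CPM against 0.0822 and 0.0869 CPM, and like the others it lies in a cluster of similar genes on chromosome 15, so that its reads are less certain. Parp12, an antiviral ADP-ribosyltransferase, had 7.78 and 7.78 CPM against no read in Empty vector, at least 184-fold higher. Gvin1, a large interferon-induced GTPase with similar neighbouring copies, had 8.76 and 8.58 CPM against 0.356 and 0.362 CPM. Ifit2, Ifit3 and Ifit3b, interferon-induced RNA-binding proteins, differed by -1.44, -1.99 and -2.26. Of 29 tested interferon-response genes 8 were called higher and 3 lower, and those 3 are these Ifit genes, which lie side by side on chromosome 19. Of 11 tested MHC class I genes 3 were called higher, with 18.2 and 18.2 CPM of H2-K1 against 1.68 and 1.75 CPM and differences of 1.07 for H2-D1 and 1.53 for H2-Q4, in a family where reads may be shared between members. Of 20 tested chemokines, cytokines and inflammatory enzymes 5 were called higher and 2 lower. Ptgs2 and Ptgs1, the cyclooxygenases, had 45.3 and 46.3 CPM against 14.04 and 18.7 CPM and 7.70 and 7.67 CPM against 1.48 and 1.52 CPM, and the chemokine Cxcl1 rose by 1.45 on the log2 scale. Il33, an alarmin of epithelial nuclei, had 40.1 and 40.01 CPM against 156 and 175 CPM, and the chemokine Ccl20 15.1 and 15.0 CPM against 32.1 and 34.8 CPM.

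The counts of metabolic, cell cycle and stress lists are to be read against the 3.23% of all genes called higher and 3.46% called lower. Of 20 tested glycolysis genes 2 were called higher and 1 lower. Pfkp, the platelet phosphofructokinase, had 13.9 and 13.8 CPM in E1KD SCR against 0.0411 and 0.0579 CPM in Empty vector, in a gene that overlaps Pitrm1 on the other strand. Eno2, the neuronal enolase, had 4.67 and 4.35 CPM against 0.0959 and 0.159 CPM, and the aldolase Aldoc 3.21 and 2.41 CPM against 15.4 and 16.2 CPM. Of 29 tested genes of glutathione and the NRF2 response 6 were called higher and 1 lower. They include Aldh3a1, an aldehyde dehydrogenase, with 6.32 and 5.65 CPM against 0.178 and 0.159 CPM, the glutathione transferases Gsta2 (1.66) and Gsta3 (1.21) and their relative Gsta1 with 12.7 and 11.5 CPM against 1.12 and 1.38 CPM, in a family where reads may be shared, and the cystine carrier Slc7a11 with 55.2 and 48.3 CPM against 23.1 and 23.01 CPM. Gclc, the rate-limiting enzyme of glutathione synthesis, had 217 and 206 CPM against 106 and 103 CPM and a difference of 1.01, which was 0.999 with median-of-ratios scaling, 0.97 without E1KD SCR replicate 1 and 0.99 without Empty vector replicate 2, each under the limit. Of 29 tested genes of cholesterol and fatty acid synthesis, the desaturase Fads1 alone was called, with 70.9 and 68.6 CPM against 162 and 145 CPM, a share near that of all genes. None of 77 nuclear subunits of oxidative phosphorylation, 80 cytosolic ribosomal protein genes and 13 mitochondrially encoded protein genes was called by limma. Their medians were 0.16, -0.01 and -0.10, and 55, 44 and 6 of them had an unadjusted p under 0.05. Over all 15259 genes tested, 10086 had such a p. Of 40 tested cell cycle genes 3 were called higher, Ccne1 (cyclin E1, 1.36), the replication helicase subunit Mcm5 (1.22) and E2f2 (1.09), and the cell cycle inhibitor Cdkn2a was called lower, with 0.217 and 0.206 CPM against 3.01 and 2.68 CPM. Of 19 tested p53 targets the receptor Eda2r alone was called, with 29.99 and 27.4 CPM against 1.21 and 1.22 CPM, again near the share of all genes. Of 26 tested ATF4 and amino acid transport genes 3 were called higher and 1 lower. Vldlr, a lipoprotein receptor, had 27.8 and 25.4 CPM against 3.78 and 4.08 CPM, and Stc2, a secreted glycoprotein of the stress response, 0.785 and 0.778 CPM against 4.59 and 4.29 CPM.

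**Figure D3:**
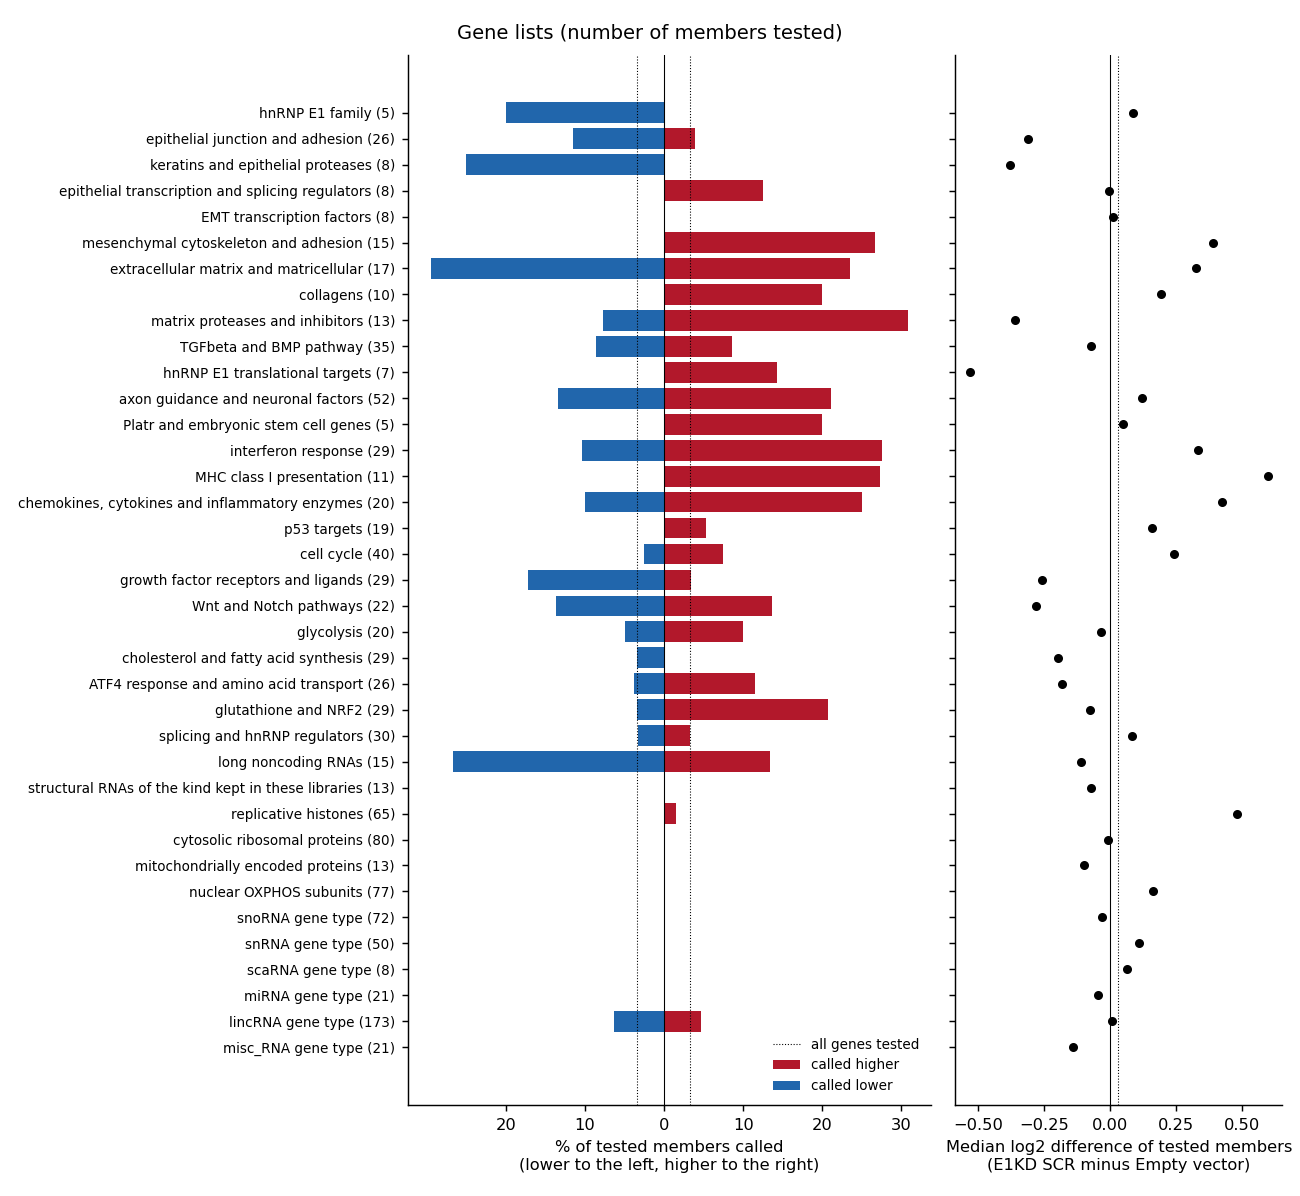
For each gene list, with the number of members tested in brackets, the left panel gives the percent of tested members called higher (red, to the right) and lower (blue, to the left), with dotted lines at the 3.23% and 3.46% of all genes tested, and the right panel the median log2 difference of all tested members. Junction, keratin and growth factor lists lie left of 0 in the right panel, MHC class I genes and replicative histones lie farthest to the right, and ribosomal, OXPHOS and structural RNA lists have no bar.

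Platr18, the embryonic long noncoding RNA that the study followed, is listed as Lncenc1 and was not called here, with 2.92 and 3.10 CPM in E1KD SCR and 3.68 and 3.06 CPM in Empty vector (log2 difference -0.12, standard error 0.0618, adjusted p = 0.11 from limma). The values of the lines overlapped. A processed pseudogene on the other strand, RP24-192J9.1, overlaps it and reached 8.65 CPM, so reads of the pair cannot be told apart. Platr14 was the one member called among 5 tested Platr and embryonic stem cell genes, with 4.01 and 3.56 CPM against 0.137 and 0.101 CPM. Of 173 tested genes of the lincRNA type 8 were called higher and 11 lower, shares of 4.62% and 6.36% beside 3.23% and 3.46% of all genes. Malat1, an abundant nuclear RNA, had 2072 and 1922 CPM against 5229.8 and 4789 CPM, and its neighbour Neat1, the scaffold of paraspeckles, 144 and 149 CPM against 328 and 313 CPM, which were 2.51-fold and 2.19-fold lower. Xist, the RNA that coats the inactive X chromosome, had 265 and 263 CPM against 89.6 and 74.2 CPM. Snhg3, a host of small nucleolar RNAs whose reads may be shared with Rcc1 and Snora73 at the same locus, had 80.7 and 77.8 CPM against 36.1 and 36.0 CPM. Nova1, a neuronal splicing regulator, had 0.690 and 0.762 CPM against 4.48 and 4.05 CPM and was called lower, and with Khdrbs3 it made up the 2 calls among 30 tested splicing regulators, 1 in each direction and near the share over all genes.

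Structural RNAs, which these libraries kept, did not pass the limit on size. None of 13 listed structural RNAs, 72 small nucleolar RNAs, 50 small nuclear RNAs, 8 scaRNAs, 21 miRNA genes and 21 genes of the misc_RNA type was called by limma, while 1, 29, 19, 4, 6 and 4 of them had an unadjusted p under 0.05. The medians of these sets lay between -0.14 and 0.11. Over all 15259 genes tested, 3.23% were called higher, 3.46% lower, and 10086 had an unadjusted p under 0.05. Replicative histones, whose mRNAs lack a poly(A) tail, gave 65 tested genes with a median difference of 0.48, 62 of them above 0, and 1 call. The other kind of library, in which 10 of these histones could be tested, had a median of -0.47.

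Markers of other cell types were at or near 0 in all 4 libraries. Summed over 7 fibroblast markers the level was 0.365 to 0.466 CPM, over 4 endothelial markers 0.137 to 0.318 CPM and over 6 leukocyte markers 0.808 to 1.04 CPM. The neuron markers reached 0.524 to 0.555 CPM in E1KD SCR and 2.23 to 2.59 CPM in Empty vector. Of 10 markers of luminal mammary epithelium 4 were tested and none was called by limma, with a sum of 2563 and 2825 CPM in E1KD SCR against 3187 and 3518 CPM in Empty vector that rests on keratins, while Wap, Prlr, Esr1, Epcam and Csn2 had no read. The 7 basal markers summed to 3.15 to 3.97 CPM. Part of the neuron sum was Map2, a microtubule-associated protein of dendrites named here after its values were seen, which was called lower (-1.17). Summed over 3 adipocyte and 2 erythroid markers the levels stayed at or under 0.311 and 0.254 CPM.

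Set beside E1KD against NMuMG, which shares no library with this comparison, the shares of calls that recurred depended on the E1KD library used. The comparisons may share parent lines, so recurrence from the silencing and from the derivation of the lines cannot be told apart. Of the 493 genes called higher, 450 were tested in both and 395 of these, 87.8%, were called higher in E1KD too, where 7.24% of 13248 genes were called higher. Of the 528 called lower, 489 were tested in both and 285 of these, 58.3%, were called lower in E1KD too, where 3.58% were called lower. Without E1KD replicate 1 the same shares were 81.1% (365 genes) and 66.9% (327 genes), and the difference between the shares was not tested. Of the 203 genes called lower here and not called in E1KD, 179 had a difference of the same sign there. Of the 959 genes called higher in E1KD the 395 were 41.2%, and the 285 were 60.1% of the 474 called lower. Opposite calls were made for 4 genes. The balance in E1KD depended on the library and on the scaling: without E1KD replicate 1, 604 genes were called higher and 624 lower there, and without replicate 2 the numbers were 2226 and 409. With values rescaled to a common sum over protein-coding genes they were 696 and 812, or 46.2% higher in place of 66.9%. The number called in the same direction in both comparisons was 692 without that replicate in place of 680.

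The size of the effect differed between the comparisons for 639 of the 15259 genes, by a test of the difference itself in one fit of the 20 libraries, on values rescaled to a sum of 1e6 over nuclear protein-coding genes. The difference was above 0 for 318 genes, 2.08%, and below 0 for 321, 2.1%. On values as deposited, where the median over all genes was -0.17, the split was 143 and 363, or 28.3% above 0 in place of 49.8%. Without E1KD replicate 2, which leaves the replicate that stood apart, 1236 genes were called.

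Platr18 was among the genes with the largest such difference. In E1KD it had 17.9 and 14.6 CPM against 1.24 and 1.45 CPM in NMuMG, 12.1-fold higher, and the effect between E1KD SCR and Empty vector minus that between E1KD and NMuMG was -3.17 on the log2 scale (standard error 0.111, adjusted p = 5.7e-10 from limma) and -3.23 without E1KD replicate 1. Sema4f rose in both comparisons, but in E1KD it had 19.999 and 15.6 CPM against 0.0531 and 0.0754 CPM, and the difference between the effects was -2.70, or -2.72 without E1KD replicate 1. Vim had 1470.1 and 1122 CPM in E1KD against 474 and 496 CPM in NMuMG, and Zeb2 18.6 and 15.6 CPM against 5.15 and 5.34 CPM, where both were called higher. Their effects differed between the comparisons by -1.005 and -1.19, and for Vim the call was lost without E1KD SCR replicate 1 (-0.93), Empty vector replicate 2 (-0.96), E1KD replicate 2 (-0.996) or NMuMG replicate 1 (-0.97). Fn1 had 206 and 119 CPM against 10.8 and 10.54 CPM, and the difference between its effects was -1.75, or -1.56 without E1KD replicate 1. Of the collagen genes, Col5a1 and Col12a1 differed by -2.26 and -2.54, and Serpinh1, the collagen chaperone, by -3.21. Without E1KD replicate 1 these values were -2.26, -2.46 and -3.30, and that of Zeb2 was -1.26. The control levels of such genes differed or were near 0: Zeb2 had 13.8 and 13.7 CPM in Empty vector and 5.15 and 5.34 CPM in NMuMG, and Platr18 3.68 and 3.06 CPM and 1.24 and 1.45 CPM, while Sema4f and Col5a1 were near 0 in both controls. Since the kinds of library were scaled over different RNA, levels set across them are a description only.

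**Figure D4:**
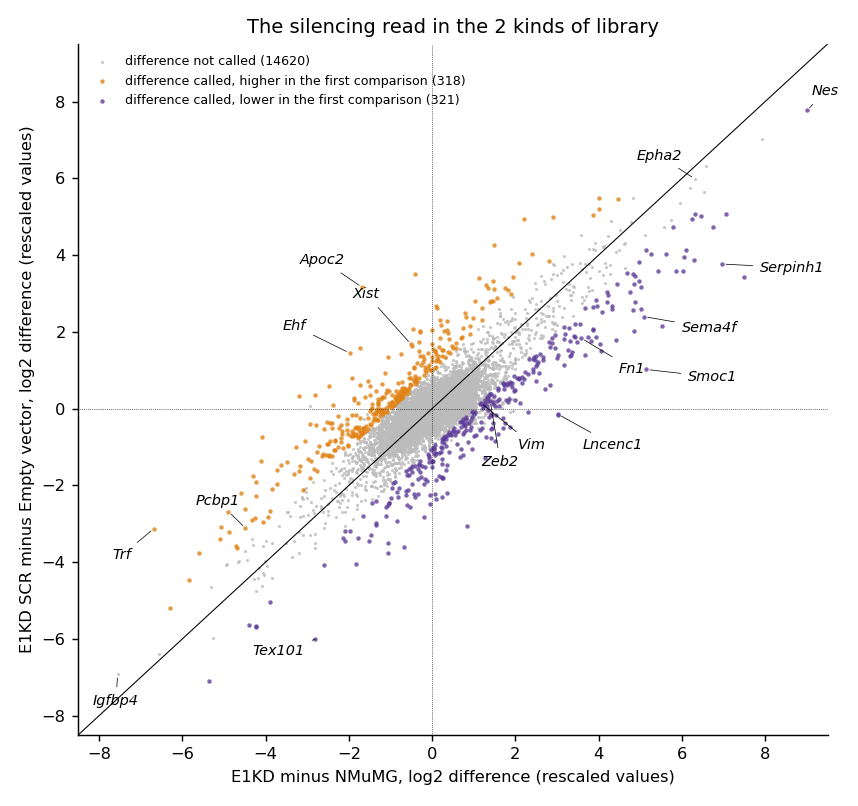
Each point is a gene tested in the fit of both comparisons, with the log2 difference between E1KD and NMuMG on the x axis and that between E1KD SCR and Empty vector on the y axis, both on rescaled values, and the line of equal effect. The 318 genes in orange and 321 in purple were called for the difference between the effects. Lncenc1, Vim and Zeb2 lie near 0 on the y axis and to the right of 1 on the x axis, and Nes, Epha2 and Igfbp4 lie far from 0 on both axes.

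Some genes moved in opposite directions, or in one comparison alone. Apoc2, an apolipoprotein that shares its locus with a readthrough gene, had 10.4 and 11.1 CPM in E1KD SCR against 0.901 and 0.706 CPM in Empty vector but 0.583 and 0.486 CPM in E1KD against 2.18 and 2.41 CPM in NMuMG, the largest difference above 0 among the genes named (4.84, adjusted p = 4.2e-10 from limma, or 4.80 without E1KD replicate 1). Ehf turned in the same way, with 16.99 and 12.6 CPM in E1KD against 51.2 and 48.9 CPM in NMuMG, and a difference of 3.43, or 3.44 without that library. Agmo, a lipid monooxygenase, and Clrn3, a clarin, were called lower in E1KD and not called here, with differences of 3.52 and 3.34, or 3.37 and 3.30 without it. Smoc1, a matricellular protein, had 5.62 and 6.08 CPM against 2.63 and 2.65 CPM here and 23.2 and 19.6 CPM against 0.159 and 0.113 CPM in E1KD and NMuMG, a difference of -4.13, or -4.21 without it. Upk1b, a uroplakin, was lower here, with 0.839 and 0.667 CPM against 9.14 and 9.62 CPM, and was not called in E1KD (-3.90), and Gnao1, a G protein subunit of neurons, rose less here (-3.39), which without it were -3.92 and -3.53. Fgfr2 and Cdkn2a, called lower here, had log2 differences of -0.04 and -0.66 in E1KD.

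The differences were not spread evenly over the genome, and the pattern by position was seen in both comparisons. It was examined after the values were seen, over 10914 protein-coding genes of the autosomes and X, of which 46.6% were below 0, 4.22% were called higher and 4.37% lower. On the first 40 Mb of chromosome 14 the median of 112 genes was 0.71 and 27 of them, 24.1%, were called higher, against a median of -0.12 over the other 250 genes of that chromosome. On the first 40 Mb of chromosome 9 the median of 133 genes was -0.59, 122 of them were below 0 and 21 were called lower, against a median of 0.04 over the other 474. Over the whole of chromosome 19 the median of 406 genes was -0.33, with 334 below 0 and 49, 12.1%, called lower. On rescaled values, the medians of these regions were 0.76, -0.62 and -0.34 here and 0.74, -0.45 and -0.37 in E1KD against NMuMG. Of 198 windows of 10 Mb with at least 20 such genes, 10 had a median past 0.5 in size on rescaled values, and all 10 were past 0.3 with the same sign in the other comparison. Of the 10, 7 lay in the regions above. The others were on chromosomes 4 (150 to 160 Mb, -0.70), 18 (80 to 90 Mb, -0.78) and X (140 to 150 Mb, 0.50). Chromosome 15 as a whole had rescaled medians of 0.26 here and 0.28 in E1KD against NMuMG. Across the 198 windows the medians of the comparisons had a Pearson r of 0.831 and a Spearman rho of 0.771, a description in which all windows of a comparison come from the same 4 libraries. The comparisons may share parent lines here too, and no cause of the pattern was tested. Of the 13 tested genes named here that lie on chromosome 19, 11 were called lower: Slc16a12, Ms4a4b, Gcnt1, Malat1, Neat1, Il33, Ifit2, Ifit3, Ifit3b, Lrp5 and Fads1, while Vldlr was called higher and Acta2 was not called. Most named genes were chosen because they were called. Of all 150 named and tested, 72 were called higher and 57 lower, so the 11 are a list and no support for the pattern.

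**Figure D5:**
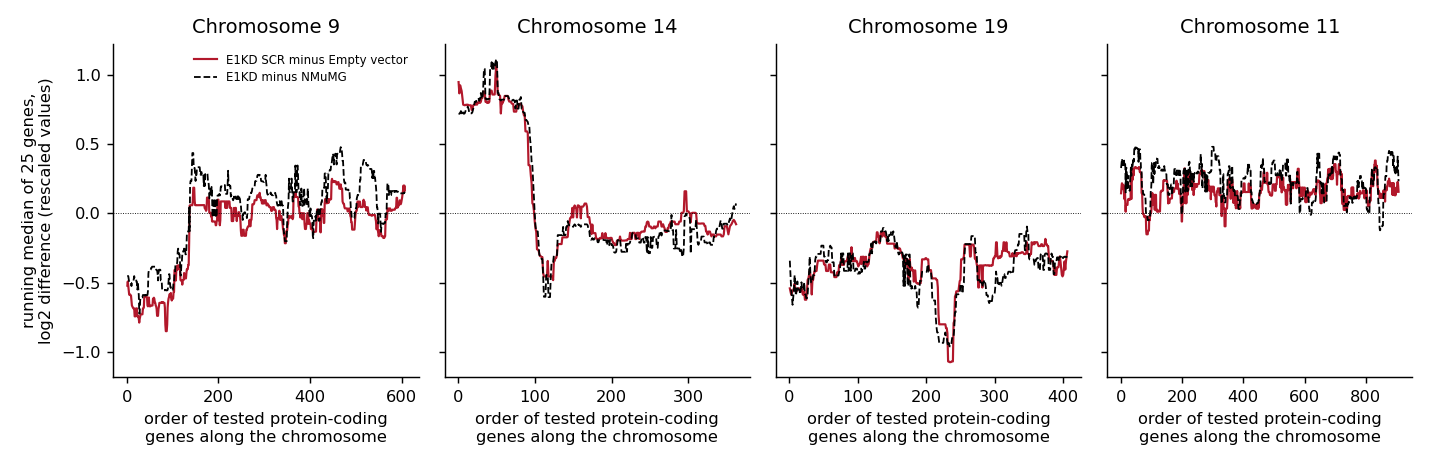
Running median over 25 neighbouring genes of the log2 difference on rescaled values, for protein-coding genes in their order along chromosomes 9, 14, 19 and 11, in E1KD SCR minus Empty vector (red) and E1KD minus NMuMG (dashed black). Chromosome 11 is not a level baseline, with rescaled medians over 907 genes of 0.16 in the first and 0.24 in the second comparison. Both lines step at the same place on chromosomes 9 and 14 and stay below 0 along chromosome 19, and on chromosome 11 they stay near or above 0.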

How the data were processed

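RNA of NMuMG cultures was extracted with Trizol and sequenced by the authors on a HiSeq2500, aligned with Bowtie2 (2.2.5 per the submitters' processing notes) to GRCm38.p6 and assigned to genes by the expectation–maximization quantification of Partek Flow. The deposited values are CPM with an offset of 0.0001, which was subtracted here, and their sums over genes are below 1e6. Whether strand was used is not stated. Of the 20 libraries, the 10 of the kind that kept structural RNA entered one limma fit (limma 3.58.1, R 4.3.3, trend) on log2(CPM + 1), with 1 mean per group and no covariate, for genes at 1 CPM in at least 2 of the 4 libraries. Benjamini-Hochberg adjustment ran over all genes tested, and calls needed an adjusted p under 0.05 and an absolute log2 difference of at least 1. E1KD against NMuMG was fitted in the same way in the 10 other libraries, and the difference between the comparisons in all 20 on rescaled values. One read was inferred from the steps of low values, and floors of 3 reads cover counting error only. Scripts were tested on simulated data. Named genes were, in each direction, the 12 called genes with the smallest p and the 12 with the largest difference, listed core members, up to 8 called members of each list, the 10 with the largest difference between the comparisons in each direction and genes named in the study, of which part is printed, and any other gene is said to be chosen after its values were seen. Members, lists and the genes of the rule were chosen with earlier results of these data known. Alternatives were the pseudocount, filters, scaling, the libraries fitted, a replicate block and leaving out each library. Some called members of the lists are counted but not reported here by name.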

Additional observations from a re-analysis of the deposited data

Results flagged for a closer look

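Of the 150 named genes that were tested, 60 had a log2 difference that differed between the comparisons by the test of the difference itself (limma on rescaled values, adjusted p under 0.05 and an absolute difference of at least 1), 21 above 0 and 39 below. Each value below is the log2 difference between E1KD SCR and Empty vector minus that between E1KD and NMuMG. Without E1KD replicate 1 the call held for 59 of the 60 and was lost for 1, Robo1. Some of these genes have a group mean under 0.05 CPM. Among them, with a pseudocount of 0.1 Nes (-0.78) and Gsta2 (1.53) lost the call, while F2r (-4.11), Gvin1 (-3.03) and Slc38a1 (-3.49) kept it at values over 1.5 times those given here. F2r had 1 read in each E1KD SCR library, so its value rests on the floor and the pseudocount. No size of a difference in silencing is read from it. No cause was tested, and the hnRNP E1 level, the second construct, the control line and the kind of library cannot be told apart.

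Among genes of the cytoskeleton, adhesion and matrix the values below 0 were -1.24 for Nes, -1.005 for Vim, -1.35 for Itga5, -1.75 for Fn1, -1.93 for Fbln2, -1.27 for Cyr61, -2.26 for Col5a1, -2.54 for Col12a1, -3.21 for Serpinh1 and -4.13 for Smoc1. Of these, Nes, Itga5, Fn1, Fbln2, Col5a1, Col12a1 and Serpinh1 were called higher in both comparisons. Zeb2 had -1.19, and the polarity gene Pard3b, lower in both, had -1.13.

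Among genes of neurons and axon guidance the difference was -2.70 for Sema4f, -2.10 for Flrt2, -3.39 for Gnao1, -1.02 for Robo1 and -1.92 for Map2. Lncenc1 (Platr18) had -3.17. Robo1 lost the call without E1KD replicate 1 (-0.92), E1KD SCR replicate 1 (-0.96) or Empty vector replicate 1 (-0.93).

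Among immune genes and inflammatory enzymes the difference was -1.32 for Ly6a, -1.21 for Ly6c1, -1.31 for H2-D1, -1.33 for Gvin1, -1.89 for Ptgs2, -1.35 for Ccl20, -1.86 for Serpinb9b and -2.82 for S100a7a. It was above 0 for Ly6e (1.47) and H2-K1 (1.28), members of the same families.

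In signalling, metabolism and growth, values below 0 were -1.74 for F2r, -1.92 for Irs1, -1.36 for Fgfr2, -1.02 for Axin2, -1.36 for Cdkn2a, -1.26 for Hspb8, -1.98 for Slc38a1, -1.73 for Prl2c2, -1.44 for Prdx4, -1.24 for Slc25a13, -1.46 for Hmgcll1, -3.20 for Tex101 and -3.90 for Upk1b. Slc25a13 was at 0 in both silenced lines, so its value only sets the levels of the controls side by side. Prdx4 and Hmgcll1 were at 0 in E1KD SCR, so their values rest on the control level and the pseudocount (-2.75 for Prdx4 and -4.12 for Hmgcll1 with a pseudocount of 0.1). No difference in silencing is read from these 3. Axin2 lost the call without E1KD SCR replicate 1 (-0.98), Empty vector replicate 2 (-0.997) or NMuMG replicate 2 (-0.92).

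Values above 0 were 1.37 for Pcbp1, which was less reduced here, 4.84 for Apoc2, 3.56 for Trf, 3.52 for Agmo, 3.43 for Ehf, 3.34 for Clrn3, 2.77 for Gpnmb, 2.27 for Aldh3a1, 2.19 for Xist and 2.11 for Fgf1. Those of transferases and the lipoprotein receptor were 1.33 for Gsta1, 1.95 for Gsta2, 1.601 for Gsta3 and 1.42 for Vldlr. The smaller ones were 1.19 for Hexa, 1.14 for Tm4sf1, 1.12 for Airn, 1.09 for Kcnk5 and 1.01 for Khdrbs3. Hexa was at 0 in both controls and Airn in both silenced lines, so their values set levels of the other lines side by side and no difference in silencing is read from them. Each of these 5 lost the call without at least 1 library, and so did Gsta1.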

How the results depend on the processing

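The number of genes called between E1KD SCR and Empty vector was 1021, and it was 523 with a mean of at least 5 CPM and 9599 with no limit on the fold change. Leaving out each library gave 1014 to 1052. The number whose effect differed between the comparisons was 639, with 363 at a rescaled mean of at least 5 in each kind of library and 609 to 1236 without each library, 1236 being the value without E1KD replicate 2. Between E1KD and NMuMG 1433 genes were called, and 1228 to 2635 without each library, 2635 without E1KD replicate 2. Calls in the same direction in both comparisons numbered 680, and 662 to 696 without each library. A fit with a replicate block gave 1021, 639, 1428 and 680, and no named gene changed its call. The numbers do not pair the libraries, as deviations of same-numbered libraries correlated at 0.01 in this comparison and -0.01 in the other. Of the 150 named genes 9 crossed the limit of size under some alternative and none reversed. Of the 60 differences between the comparisons 16 lost the call under some alternative, and that of Gsta1 reversed with a pseudocount of 0.1 (-0.26 against 1.33). The cause was not tested. The planned count test was not run because whole reads were not recovered for nearly all genes. Genes without a read are bounded at 3 reads, 0.0406 to 0.0477 CPM, so a lower level was not detectable at this depth.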

Other observations

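In 2 loci a noncoding RNA and a neighbouring gene were called in opposite directions, and these values were seen after both genes had been named by their lists. Airn, the RNA that silences Igf2r on the paternal chromosome, had no read in E1KD SCR and 2.99 and 2.40 CPM in Empty vector, at least 61.1-fold lower, beside 83.0 and 82.1 CPM of Igf2r in E1KD SCR and 5.68 and 5.63 CPM in Empty vector. The genes overlap on opposite strands, and in the other comparison Airn had 0 and 0 CPM in E1KD and 5.59 and 5.56 CPM in NMuMG, with 48.9 and 28.4 CPM and 2.64 and 2.83 CPM of Igf2r. Ptgs2os2, an RNA beside Ptgs2, had 0.0947 and 0.0953 CPM in E1KD SCR and 4.78 and 4.72 CPM in Empty vector, while Ptgs2 had 45.3 and 46.3 CPM and 14.04 and 18.7 CPM. In E1KD it had 0.0591 and 0.0739 CPM and in NMuMG 3.45 and 3.43 CPM, with 73.3 and 55.3 CPM and 5.03 and 4.85 CPM of Ptgs2.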
